A study of Rattus norvegicus with 4 samples.

Results

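The genes described here were regulators of apoptosis, the programmed death of cells, and the caspases, the proteases that carry it out, measured in the hippocampus of rats after voluntary wheel running. Members were taken from a list of 38 gene symbols, and a gene was counted as present on the array where the accession of a noncontrol spot resolved to its symbol. Of the 38 listed genes, 36 had at least 1 named probe and 46 probes in all, out of 8899 genes and 10768 probes that could be named. Htra2 and Naip6 matched no probe.

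Apoptosis runs along a mitochondrial and a death receptor route. In the mitochondrial route, BH3-only proteins sense damage and release Bax and Bak from the anti-apoptotic Bcl-2 proteins, after which proteins that leak from the mitochondria activate caspases. In the death receptor route a ligand such as Fas ligand assembles a receptor complex that activates an initiator caspase. In the adult hippocampus both routes are known from the removal of surplus newborn neurons in the dentate gyrus and from neuron loss after ischaemia or seizures.

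Hippocampal RNA came from male Wistar rats, aged 10 weeks at the start, that were kept for 4 weeks in standard cages (sedentary, 10 rats), in cages with a freely turning wheel (WR, 8 rats) or in cages with a wheel whose resistance was raised to 30% of body weight (RWR, 8 rats). RNA was pooled within each group from replicate samples, and how many of its rats a pool holds was not given in the sources used here. Each of the 4 chips of 1 slide took a running and a sedentary pool in 2 colours: WR against sedentary on chips 1 and 2, RWR against sedentary on chips 3 and 4. The running pool was in Cy5 on chips 1 and 3 and in Cy3 on chips 2 and 4. All values are log2 ratios of the running pool over the sedentary pool, so that a positive value means more signal in runners. The chips of a pair repeat the same pools, which leaves 1 biological replicate for each group and allows no test of one condition against another. Running was voluntary, so the distance run was not set. The sedentary pool is shared by both comparisons.

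The chips held 43379 noncontrol spots each, of which 118 to 140 were left out as outliers and 0 were saturated. Between 69.0% and 77.9% of spots were well above background in the running pool and between 67.5% and 82.5% in the sedentary pool. Nrgn, Camk2a, Wfs1, Ppp3ca and Snap25, the 5 of 8 listed neuron markers with a named probe, were above background in every pool on every chip, which shows neuronal RNA but does not set the hippocampus apart from other forebrain tissue. In tissue of mixed cells, fewer cells of a type and less RNA per cell cannot be told apart. The summed signal of 6 choroid plexus markers, of which 2 could be compared in WR and 3 in RWR, was 387.6 in the WR pool against 625 in the sedentary pool, and 751 in the RWR pool against 693. Their lead marker Ttr, which encodes transthyretin, read -0.86 for the WR pair and 0.12 for the RWR pair. The part of such tissue in the values below was not tested.

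Genes were read with their brightest probe, where it was above background in both pools on both chips of a pair. Among these, no apoptosis gene differed from the sedentary pool by a mean fold of 1.2 in the same direction on both chips. A dimmer probe of Casp9 passed this rule on the lower side in RWR and is described with that gene. In WR, 27 of the 36 members were above background in both pools on both chips. Of these, 0 were higher and 0 were lower by this 1.2-fold rule, beside 0.4% and 0.75% of all 6001 named genes that could be compared in the same way. In RWR 28 members could be compared. Again 0 were higher and 0 lower, beside 0.649% and 0.712% of 6317 named genes. With percentages this small, a list of this size would hold few or no such genes at the background rate, so the counts of 0 do not set the members apart.

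The members' means over a pair of chips lay close to 0 in both groups. In WR their median log2 ratio was -0.02, with a range from -0.10 for Casp6 to 0.12 for Bid, and all 27 lay within 1.1-fold of the sedentary pool, as did 90.2% of all named genes. In RWR the median was -0.02, with a range from -0.14 for Casp9 to 0.17 for Bmf. Here 24 of 28 members lay within 1.1-fold, a share of 85.7% beside 86.6% of all named genes. The median size of the mean, whatever its sign, was 0.03 in WR and 0.04 in RWR, beside 0.04 and 0.05 over all named genes. By this measure the members spread no wider around 0 than other genes of the array.

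**Figure D1:**
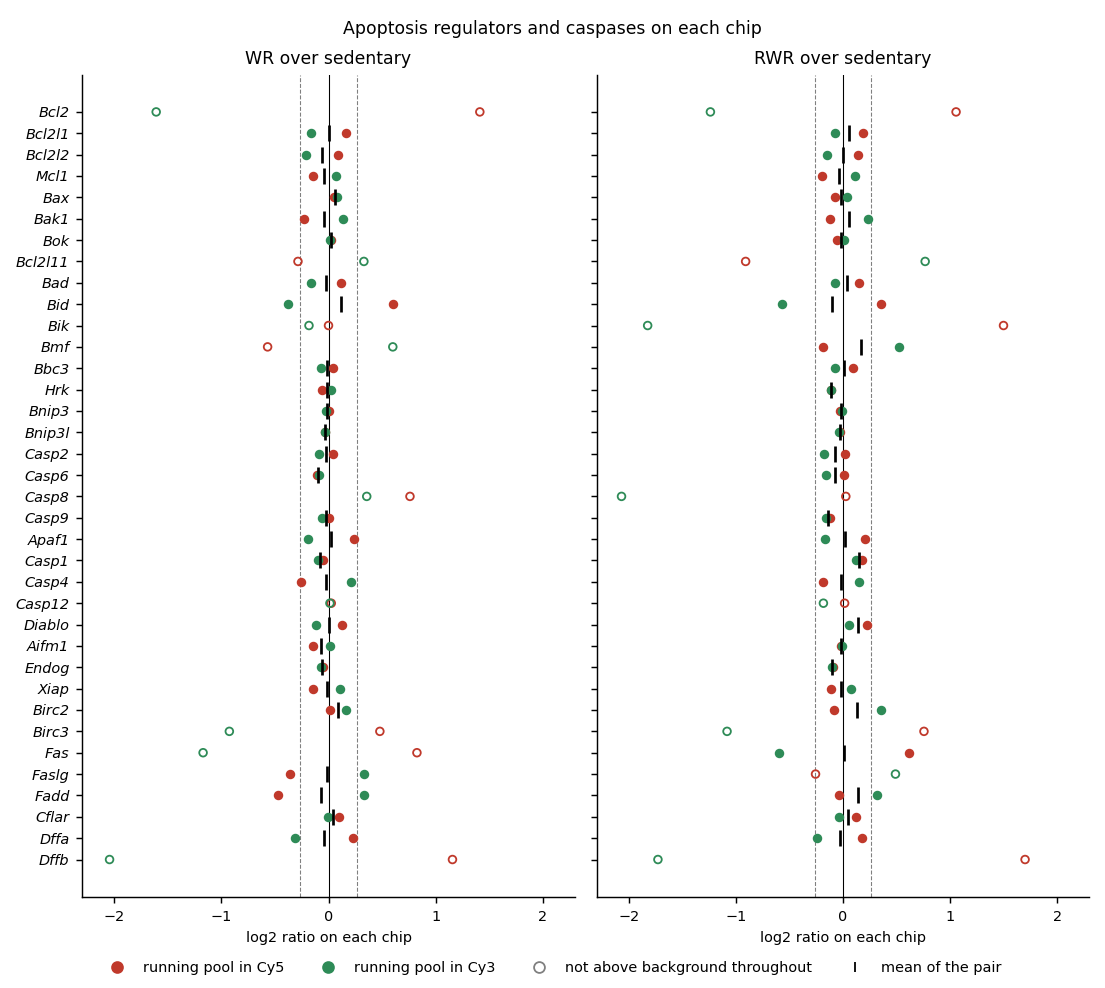
Log2 ratio of the running pool over the sedentary pool (x axis) on each chip for the 36 members with a probe (y axis, by role), in WR and RWR. Red points are chips with the running pool in Cy5, green points those with it in Cy3, open points lack signal above background in at least 1 pool or chip of the pair, black ticks are means of the pair where both pools were above background, and dashed lines mark a fold of 1.2. Every black tick lies between the dashed lines, while many red and green points of a member fall on opposite sides of 0.

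The plot of members by chip shows that the spread between the chips of a pair was larger than most of the means. The dye component of a member, taken as the difference between the chips of a pair divided by 2, had a median size of 0.08 in WR and 0.10 in RWR. Both chips of a pair had the same sign for 7 of 27 members in WR and for 8 of 28 in RWR. In WR these were Bax, Birc2 and Bok, higher on both chips, and Bnip3l, Casp1, Casp6 and Endog, lower on both. That is 3 higher and 4 lower, beside 14.7% and 15.1% of all named genes. In RWR Casp1 and Diablo were higher on both chips, beside 15.8% of all named genes. Aifm1, Bnip3, Bnip3l, Casp9, Endog and Hrk were lower on both, which makes 6, beside 16.3%. Bnip3l and Endog were lower on all 4 chips. The pairs share the sedentary pool, and the share of all named genes lower on all 4 chips is not given here.

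**Figure D2:**
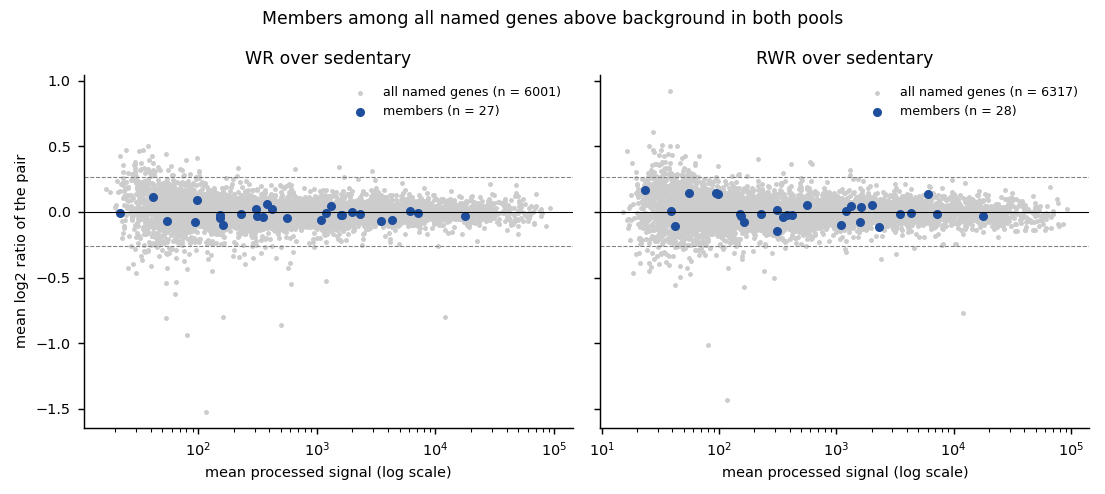
Mean log2 ratio of a chip pair (y axis) against mean processed signal on a log scale (x axis) for all named genes above background in both pools (grey) and for the members (blue), in WR (27 members) and RWR (28 members). Dashed lines mark a fold of 1.2, and all blue points lie between them, over a range of signal from dim to bright.

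The error of a pair mean was estimated from the 4 chips, as the spread of (chip 1 minus chip 2) less (chip 3 minus chip 4) among genes of like signal, which leaves out a dye effect common to both pairs. Over the 26 members compared in both groups this technical SE had a median of 0.04 and ran from 0.03 for bright probes to 0.22 for dim ones. For Bmf and Faslg, each compared in 1 group, it was 0.29. It covers labelling, hybridization and scanning and not the differences between rats. Means past 2 technical SE in WR were 0 higher and 3 lower (Aifm1, Bcl2l2 and Endog), beside 8.88% and 10.9% of all named genes. In RWR they were 1 higher (Diablo), beside 10.9%, and 4 lower (Casp2, Casp9, Endog and Hrk), beside 12.6%. The study's cutoffs were a fold over 1.5 or under 0.75 and a p-value under 0.01. The paper states that a gene had to change in both dye orientations. Here each cutoff was required on both chips, which the paper does not state. The paper reports many more genes than passed here. Its counts came from the whole array, and those here from named genes read with their brightest probe. How the rules differ in strictness was not tested. By the rule used here 0 of the 36 members passed in WR or RWR, beside 0% of named genes higher and 0.0674% lower in each.

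The anti-apoptotic Bcl-2 proteins hold Bax and Bak in check. Bcl2l1, which encodes Bcl-xL, had log2 ratios of 0.17 and -0.16 on the WR chips and of 0.19 and -0.08 on the RWR chips. The means were 0.00 and 0.06, against a technical SE of 0.03. The sign went with the dye of the running pool in both pairs. Processed signals on chip 3 were 2309.9 in the RWR pool and 2024 in the sedentary pool, and on chip 4 they were 1841 and 1946. Bcl2l1 had 3 further probes. A dimmer pair of them had means of 0.06 and 0.16 in WR and of 0.05 and -0.08 in RWR. The last, with 10 spots, was above background on no chip, so the sign in RWR depended on the probe.

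Bcl2l2, which encodes Bcl-w, had 0.09 and -0.21 on the WR chips and 0.14 and -0.15 on the RWR chips. Its means were -0.06 in WR and -0.01 in RWR. The WR mean was past 2 technical SE, but the chips of that pair differed in sign. The dimmer Bcl2l2 probe had means of -0.19 in WR and -0.04 in RWR. Its chips also differed in sign, with -0.44 and 0.07 in WR and -0.18 and 0.10 in RWR. Mcl1, a short-lived protein that many cells need to survive, read -0.15 and 0.07 in WR and -0.19 and 0.11 in RWR. Its means of -0.04 in both groups came from the brighter of its probes, and the other gave 0.09 and 0.02, the opposite sign. Bcl2, the founding gene of the family, was dim: of its 10 spots, no more than 5 were well above background in either pool on any chip. Its chip values were 1.41 and -1.61 in WR and 1.06 and -1.24 in RWR. They followed the dye and gave no level to compare.

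Bax, Bak1 and Bok encode the proteins that open the outer mitochondrial membrane. Bax was printed in 10 spots, which gives a direct view of the spread of single spots within a chip. Its values were 0.05 and 0.08 on the WR chips and -0.08 and 0.03 on the RWR chips. The SD over spots was 0.05, 0.06, 0.02 and 0.03 on chips 1 to 4. Bax was thus higher on both WR chips by about 1 SD of single spots, a spread wider than the error of a mean over spots. Its WR mean was 0.06, with a technical SE of 0.04 and a fold of 1.05. In RWR its chips differed in sign and the mean was -0.02. Bak1 read -0.23 and 0.14 in WR and -0.13 and 0.23 in RWR, with means of -0.04 and 0.05. Bok read 0.03 and 0.02 in WR and -0.05 and 0.01 in RWR. For neither gene did a mean exceed 2 technical SE.

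**Figure D3:**
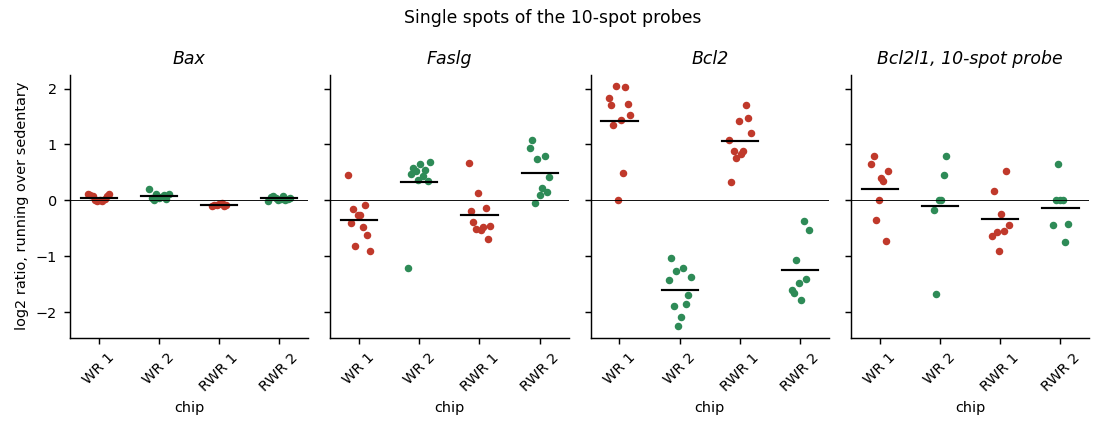
Log2 ratio (y axis) of single spots of the 4 member probes printed in 10 spots, by chip (x axis: WR 1 and 2, RWR 1 and 2), with the mean of each chip as a bar. Red points have the running pool in Cy5 and green points have it in Cy3. Bax spots cluster near 0 on all chips, Bcl2 spots lie above 0 in red and below 0 in green, and Faslg chip means have the opposite pattern.

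The BH3-only proteins relay stress to the Bcl-2 family. Among the 7 members of this kind, 4 could be compared in WR and 5 in RWR. Bid, which is cleaved by caspase-8 and links the death receptor route to the mitochondria, gave 0.61 and -0.38 on the WR chips. On the RWR chips it gave 0.36 and -0.57. Its mean of 0.12 in WR was the highest of the members and that in RWR was -0.10, both under its technical SE of 0.22, which was large because the probe was dim. Bmf, a BH3-only protein associated with the cytoskeleton, had -0.19 and 0.52 on the RWR chips. Its RWR mean of 0.17, a fold of 1.12, was the highest of that comparison, with a technical SE of 0.29. In WR Bmf read -0.57 and 0.60. The sedentary pool was above background there on 2 of 2 chips and the WR pool on 0, but signals at this level allowed no lower bound above 1 for the fold.

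Hrk, a BH3-only protein made mainly in neurons, was lower on both RWR chips. Its values were -0.06 and 0.03 in WR and -0.11 and -0.12 in RWR, with means of -0.02 and -0.11 and a technical SE of 0.03. On chip 3 the processed signal was 2408 in the RWR pool and 2602 in the sedentary pool, and on chip 4 it was 2021 and 2189. The RWR fold was 0.924. The other Hrk probe had an RWR mean of -0.15, but its chips read -0.43 and 0.12 and so did not share a sign. On the WR chips that probe read -0.24 and 0.21, so its signs went with the dye in both pairs. The RWR means of both Hrk probes were below 0.

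Bad, a BH3-only protein held inactive by survival kinases, had 0.11 and -0.16 in WR and 0.15 and -0.07 in RWR. Its means were -0.03 and 0.04, whereas its other probe gave 0.06 and 0.00, with the opposite sign in both groups. Bbc3, which encodes Puma, had 0.05 and -0.07 in WR and 0.09 and -0.07 in RWR, with means of -0.01 and 0.01. Neither gene differed from the sedentary pool by more than 2 technical SE. Bcl2l11, the gene of Bim, was above background on 2 of 4 chips in Cy5 and on 0 in Cy3, and Bik on 1 and 0. Neither could be compared.

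Bnip3 and Bnip3l encode mitochondrial proteins that resemble BH3-only proteins and are best known for the removal of mitochondria in low oxygen. Their readings repeated closely from chip to chip. Bnip3l read -0.03, -0.03, -0.03 and -0.04 on chips 1 to 4. Bnip3 read 0.01, -0.03, -0.03 and -0.01. The means were between -0.03 and -0.01, with technical SEs of 0.03, and none was past 2 of them.

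Casp9 is the initiator caspase of the mitochondrial route and is switched on by Apaf1. Its log2 ratios were 0.01 and -0.06 on the WR chips and -0.12 and -0.16 on the RWR chips. The mean in RWR was -0.14, a fold of 0.906, with a technical SE of 0.04. The lower value in RWR was present in both dye orientations, with signals of 329.8 against 359.1 on chip 3 and 268.7 against 300.9 on chip 4. The other Casp9 probe had -0.24 and -0.31 on the RWR chips, with a mean of -0.28. It was also lower on both and passed the 1.2-fold rule. In WR the probes had means of -0.03 and 0.03. Averaged over both probes the RWR value was -0.21. The p-value that the scanner software gave for the brighter probe on a single chip was 0.55 on chip 3 and 0.43 on chip 4. Casp9 was thus lower in the RWR pool with both probes on both chips, which repeat the same pools. The brighter probe fell short of the 1.2-fold rule and the dimmer one passed it. The dimmer probe had a mean signal of 46.6, beside 315 for the brighter, and no technical SE was estimated for it. Members of like signal, Bid at 42.0 and Fadd at 55.1, had technical SEs of 0.22 and 0.16. The share of all named probes that passed the rule is not given here.

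Apaf1, the scaffold that assembles with cytochrome c to activate caspase-9, had 0.24 and -0.19 in WR and 0.20 and -0.17 in RWR. Its means were 0.02 in both groups, so the sign of each chip went with the dye. Casp2, an initiator caspase activated by DNA damage, had 0.04 and -0.09 in WR and 0.02 and -0.18 in RWR. The RWR mean of -0.08 was past 2 technical SE, but its chips differed in sign. Casp6, an executioner caspase also linked to the pruning of axons, had -0.11 and -0.09 in WR and 0.01 and -0.16 in RWR. It was lower on both WR chips, with a mean of -0.10 and a technical SE of 0.06. Casp8, the initiator of the death receptor route, was above background in Cy5 on 1 of 4 chips and in Cy3 on 0. In RWR it read 0.03 on chip 3 and -2.07 on chip 4, with the sedentary pool above background on chip 4 and the RWR pool on neither. The bound over the pair was at least 1.02-fold lower, which is close to no difference and rested on chip 4, since without that chip the value was 0.03.

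Casp1 and Casp4 belong to the inflammatory caspases, which mature interleukins and open pores in the cell membrane. Casp1 was the only member whose chips lay on one side of 0 in WR and on the other side in RWR. Its log2 ratios were -0.05 and -0.10 in WR and 0.18 and 0.12 in RWR. The means were -0.07 and 0.15, or folds of 0.949 and 1.11, and both were within 2 technical SE of 0.12 each. Signals in the RWR pool were 116 and 90.0 on chips 3 and 4, against 103 and 83.1 in the sedentary pool.

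Caspase-1 is made in microglia among other cells, and microglial markers had their own values on these chips. All 8 of the 8 listed microglial markers were above background. Their median log2 ratio was 0.03 in WR, with a range from -0.11 to 0.07, and 0.11 in RWR, with a range from -0.28 to 0.13. In RWR 5 of them (Aif1, Cd68, Tyrobp, C1qa and C1qb) lay between 0.11 and 0.13, though the chips of Cd68 differed in sign (-0.08 and 0.30). Cx3cr1 was at 0.00. Csf1r and Itgam, each lower on both chips, were at -0.02 and -0.28. The summed signal of these markers was 17550.1 in the WR pool against 17057 in the sedentary pool, and 19669 in the RWR pool against 18217. The part of microglia in the Casp1 values was not tested. Casp4, which binds bacterial lipopolysaccharide inside cells, read -0.26 and 0.21 in WR and -0.19 and 0.15 in RWR. Its means of -0.02 in both groups were near 0. Casp12, a caspase of the endoplasmic reticulum, was above background in Cy5 on 4 chips and in Cy3 on 1, and could not be compared.

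Among proteins that leave the mitochondria in apoptosis, Diablo (also called Smac) frees caspases by binding their inhibitors. It had 0.12 and -0.11 on the WR chips and 0.22 and 0.05 on the RWR chips. The RWR mean was 0.14 with a technical SE of 0.03, and the WR mean was 0.00. Signals were 7248 in the RWR pool against 6214 in the sedentary pool on chip 3, and 5847 against 5637 on chip 4. Diablo was the only member with a mean past 2 technical SE on the higher side in RWR. Most of that mean came from the chip with the RWR pool in Cy5.

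Endog, the mitochondrial nuclease endonuclease G, was lower on all 4 chips. Its log2 ratios were -0.05 and -0.07 in WR and -0.10 and -0.10 in RWR. The means of -0.06 and -0.10 corresponded to folds of 0.96 and 0.932. The RWR mean exceeded 2 technical SE of 0.03 each. The WR mean, -0.0592 with a technical SE of 0.0296, lay at the edge of that rule. Both comparisons share the sedentary pool. Aifm1, a mitochondrial flavoprotein that moves to the nucleus in cell death, had -0.15 and 0.01 in WR and -0.02 and -0.01 in RWR. Its mean was -0.07 in WR, where the chips differed in sign, and -0.02 in RWR.

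The inhibitor of apoptosis proteins bind caspases or tag them for degradation. Xiap, which blocks caspases directly, had -0.15 and 0.11 in WR and -0.11 and 0.07 in RWR, with means of -0.02 in both. Birc2, a ubiquitin ligase that also acts in tumour necrosis factor signalling, had 0.01 and 0.17 in WR and -0.09 and 0.35 in RWR. Its means of 0.09 and 0.13 were within 2 technical SE of 0.12 each, and its RWR chips differed in sign. Birc3, a close relative of Birc2, was above background in Cy5 on 4 chips and in Cy3 on 1. Its means could not be read as levels.

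The death receptor route was represented by Fas, its ligand Faslg, the adaptor Fadd and the inhibitor Cflar. Faslg, printed in 10 spots, had chip means of -0.36 and 0.34 in WR and of -0.26 and 0.49 in RWR. The SD over its spots was 0.39, 0.56, 0.40 and 0.41 on chips 1 to 4. The sign was that of the dye, and the WR mean was -0.01. In RWR only 2 of the 9 spots used on chip 4 were above background in the running pool, so no RWR level was taken. Fas had 0.83 and -1.17 in WR and 0.61 and -0.60 in RWR. The signs went with the dye in both pairs. This brighter Fas probe could be compared in RWR alone, where the mean was 0.01 with a technical SE of 0.22. The dimmer Fas probe was not above background throughout in either group.

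Fadd, which bridges the receptor to caspase-8, had -0.48 and 0.33 in WR and -0.04 and 0.32 in RWR. Its means of -0.07 and 0.14 were under its technical SE of 0.16. Fadd was among the 5 members with the largest mean in each group, and in both groups its chips differed in sign. Cflar, a relative of caspase-8 that blocks it at the receptor, had 0.10 and -0.01 in WR and 0.12 and -0.04 in RWR. Its means of 0.04 in both groups did not exceed 2 technical SE of 0.03 each.

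Dffb is the nuclease that cuts DNA between nucleosomes, and Dffa is the chaperone that holds it inactive until caspases cut it. Dffa had 0.23 and -0.31 in WR and 0.17 and -0.24 in RWR, with means of -0.04 and -0.03. Its dimmer probe had a mean of -0.02 in WR and of 0.13 in RWR, so its sign in RWR depended on the probe. Dffb was above background in Cy5 on 1 chip and in Cy3 on 0. It read 1.70 and -1.73 on the RWR chips, and Bik read 1.498 and -1.825. Both passed in the sedentary pool of 1 RWR chip alone, and neither gave a lower bound above 1 for the fold.

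Whether a dim member passed as present went with the dye, except for Bmf. Of the members not above background throughout, Birc3 and Casp12 passed in Cy5 on 4 chips each and in Cy3 on 1 each, Fas on 4 and 2, Bcl2l11 and Bcl2 on 2 and 0 each, and Faslg on 4 and 3. Casp8, Bik and Dffb passed in Cy5 on 1 chip each, and Bmf on 3 chips in each dye. No member was above background in the running pool alone in WR or RWR. Those seen in the sedentary pool alone were Bmf in WR and Bik, Casp8 and Dffb in RWR, and in the RWR cases that pool was seen in Cy5. On chip 4, where the sedentary pool was in Cy5, 82.5% of all spots passed in that pool and 69.0% in the RWR pool. The share of all named genes seen in 1 pool alone is not given here, so these cases do not set the members apart.

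The dye component was much the same in both pairs of chips. Across the 26 members compared in both groups its Pearson r between the pairs was 0.923, and it had the same sign in 22. Over all named genes the r was 0.857 and the sign was the same in 5023 of 5929. These are descriptions over genes, which are not independent replicates, and the pairs share the sedentary pool, the slide and the probe. Bid had the largest component, 0.49 in WR and 0.46 in RWR, and Fadd had the most negative one in WR, -0.40, with -0.18 in RWR. The log2 ratios of the members on chips 1 and 2 had an r of -0.876, and those on chips 3 and 4 an r of -0.712, beside -0.622 and -0.573 over all named genes.

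**Figure D4:**
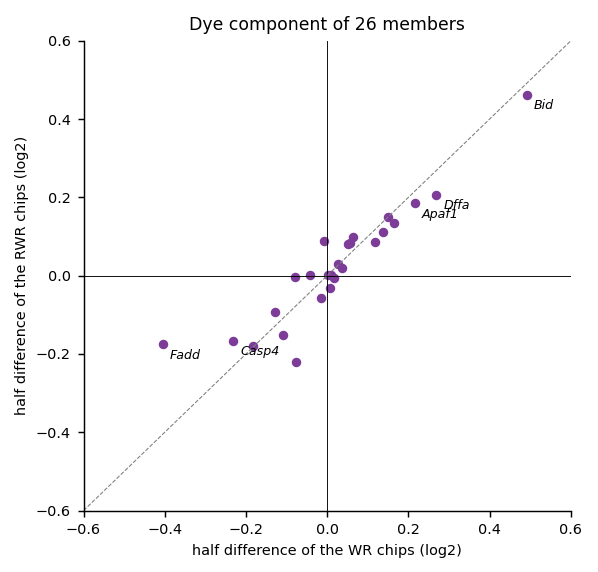
Dye component of the 26 members compared in both groups, defined as the difference between the chips of a pair divided by 2 (log2), in the WR chips (x axis) and the RWR chips (y axis). Points lie near the dashed line of equality, from Fadd at the lower left to Bid at the upper right.

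RWR could be set against WR through chips of the same dye orientation, chip 3 minus chip 1 and chip 4 minus chip 2, where a constant dye component drops out. Over 26 members the median difference was 0.00, with a range from -0.22 for Bid to 0.22 for Casp1. By the 1.2-fold rule 0 members were higher and 0 lower in RWR, beside 1.28% and 1.3% of 5929 named genes. Both orientations had the same sign for 6 members higher in RWR (Bad, Bak1, Bcl2l1, Bcl2l2, Casp1 and Diablo) and for 8 lower (Bax, Bid, Bnip3l, Bok, Casp2, Casp9, Endog and Hrk), beside 28.5% and 29.7% of all named genes. The members' shares are not far from these backgrounds.

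Diablo was 0.10 higher in RWR than in WR with the running pools in Cy5 and 0.17 higher with them in Cy3. Its mean difference of 0.13 was the 1 higher difference past 2 technical SE, beside 7.24% of all named genes. Hrk differed by -0.05 and -0.14, with a mean of -0.10, the 1 lower difference past 2 technical SE, beside 7.03%. Casp9 differed by -0.13 and -0.10, with a mean of -0.12 and a technical SE of 0.06. Casp1 differed by 0.22 in both orientations, with a technical SE of 0.16, and Bid by -0.25 and -0.19, with one of 0.31. The last pair had the largest differences of the list and also dim probes with wide errors.

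**Figure D5:**
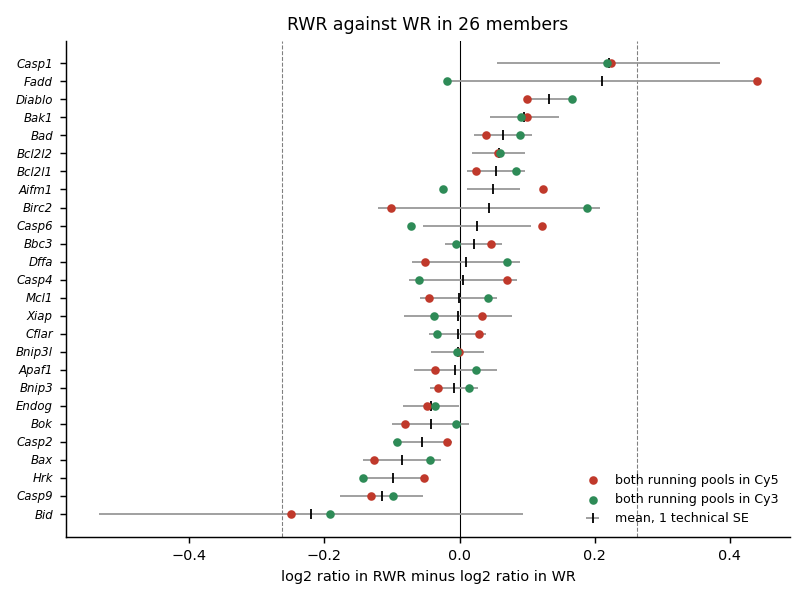
Difference of the log2 ratios in RWR and WR (x axis) for the 26 members compared in both (y axis, in order of the mean). Red points compare chips with the running pools in Cy5, green points those with them in Cy3, ticks are means and grey bars 1 technical SE; dashed lines mark a fold of 1.2. All ticks lie inside the dashed lines, with Casp1 at the top and Bid at the bottom.

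Beyond the members, 48 other apoptosis genes were listed, of which 23 had a named probe and 18 were above background throughout. By the 1.2-fold rule 0 of the 18 were higher and 0 lower in WR or RWR. Their median log2 ratios were -0.02 in WR and -0.03 in RWR. Past 2 technical SE were 2 higher and 3 lower in WR, and 4 higher and 3 lower in RWR, beside the 8.88% and 10.9% of all named genes in WR and the 10.9% and 12.6% in RWR.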

How the data were processed

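Hippocampal RNA pools of sedentary, WR and RWR rats were measured on 4 two-dye chips of a rat oligo array. The authors quantified the scans with Agilent Feature Extraction 11.0.1.1, which subtracted background and normalized the dyes by LOWESS. The deposited log10 ratio sets Cy5 against Cy3, the deposited processed signal is a background-subtracted intensity in each dye, and the deposited p-value comes from the software's error model for a single chip. Groups were read from the labels of each dye.

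After control and outlier spots were dropped, each ratio was given the sign of running against sedentary and converted to log2, spots of a probe were averaged, and a gene was represented by its brightest probe. Array accessions were matched to the RefSeq table of GRCr8, which was used for names only. A gene was compared in a pair of chips where its probe, or a share of at least 0.5 of the spots for probes of 10 spots, had the well-above-background mark for Cy3 and for Cy5 on each chip. The mean of a pair cancels a constant dye effect. Technical SEs were taken in 20 levels of signal. Lower bounds of a fold used signals of each dye after loess and Aquantile normalization in limma 3.58.1 (R 4.3.3), and other steps ran in Python 3.11.15. The procedure was tested on simulated data.

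The members and lists were chosen with earlier results of these data known. Chip values were given for the 5 members with the largest mean in each comparison, members above background in 1 pool alone, members whose probes differed in sign, and Bcl2l1 and Faslg, and all other members were added by role. Alternatives covered the series matrix values (deposited log10 ratios of the processed signals), background correction, centring, the filter on dim probes, the choice of probe, the fold cutoff, the p-value filter and leaving out each chip. The number of chips limits the precision. Some genes of the list of other apoptosis genes are not reported here by name.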

Additional observations from a re-analysis of the deposited data

Results flagged for a closer look

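Casp1 had opposite signs in the running groups. Its log2 ratio was below 0 on both WR chips (-0.05 and -0.10) and above 0 on both RWR chips (0.18 and 0.12), which put RWR above WR by 0.22. With 1 pool for each group the difference was not tested, and it was within 2 technical SE of 0.16 each. Over all named genes, 272 of 5929 (4.59%) had opposite signs on all 4 chips in this way. The other 25 members compared in both groups showed no such pattern. Without background correction the Casp1 mean in RWR was 0.10 in place of 0.15.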

How the results depend on the processing

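No paired analysis was possible because each group had 1 pool and the numbers of the chips mark technical repeats. The counts of 0 members by the 1.2-fold rule held with both other background corrections and with the mean over all probes. They were also 0 with the series matrix values and median centring, which hardly change a value. A rule of 1.2-fold on both chips is stricter than the main rule, so its count of 0 was fixed in advance. With a cutoff of 1.1-fold, RWR had 1 member higher (Casp1) and 1 lower (Casp9). These counts also required the same direction on both chips, and the share of all named genes by that rule is not given here. By the mean alone, 85.7% of members and 86.6% of all named genes compared in RWR lay within 1.1-fold. With no filter on dim probes WR had 1 higher, Casp8, which was above background in neither pool of that comparison. On single chips, where the dye no longer cancels, RWR had 2 to 3 members higher and 0 to 2 lower, and WR had 1 to 2 higher and 2 to 2 lower. Chip 1 alone gave Bid higher and Faslg and Fadd lower, and chip 2 alone gave Faslg and Fadd higher and Bid and Dffa lower. Chip 3 alone gave Bid and Fas higher, and chip 4 alone gave Bmf, Birc2 and Fadd higher and Bid and Fas lower. By the study's cutoffs a single chip gave 0 to 1 members: Fas on chip 2 and Casp8 on chip 4. Shares of all named genes on single chips are not given here, so the single-chip counts do not set the members apart.

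The members' median in RWR, -0.02, was -0.0031 with normexp and loess, -0.0028 with no background correction and loess, and between -0.0378 and -0.0234 on single chips. That in WR lay between -0.0312 and 0.0086, so its sign depended on the chip, and the median difference between RWR and WR lay between -0.0052 and 0.0116. The cause was not tested. Of 120 values of single members under another setting, 116 stayed within the spread of the chips. That spread contains the dye effect, and the series matrix values and median centring hardly change a value. The 116 therefore say little about how stable the values are. Dim members moved most: Casp8 in RWR went from -1.02 to -0.05 with normexp and to -0.04 without background correction, and Bid in WR from 0.12 to -0.17 and -0.04. Casp6 in WR, -0.10, was -0.03 with normexp and -0.07 without background correction.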
